A study of Homo sapiens with 12 samples.

Results

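The activation of RAS was described from 8 of the 12 RNA-seq libraries of the series, the 4 titled as given 4-hydroxytamoxifen (4OHT) and the 4 titled as given the solvent DMSO, and across all 13248 of 62069 genes with enough reads to be tested. The cells were IMR90 ER:RAS, a line of human fetal lung fibroblasts that carries a RAS oncogene joined to a hormone-binding part of the oestrogen receptor. 4OHT binds that part and switches the fused RAS protein on. The controls (DMSO, libraries 17 to 20) carried ER:RAS too and received no 4OHT; the treated cells (4OHT, libraries 21 to 24) received 4OHT at 100 nM. All libraries came from cells at passage 15 and day 6, which the series design calls non-senescent with DMSO and senescent with 4OHT. The remaining 4 libraries, given 4OHT and 3-deazaadenosine, entered the filter on low counts, the scaling and the estimate of the spread, and are not described. For the promoter that drives ER:RAS and for the clonality of the line, nothing is given in the sources used here. No cells without ER:RAS received 4OHT, so effects of the drug and of RAS cannot be told apart. The replicates are not said to be separate cultures; the tests therefore weigh differences against a replicate spread that could be technical.

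Oncogene-induced senescence is the lasting arrest that normal cells enter when an oncogene such as RAS signals without pause. RAS acts through kinase cascades on transcription factors, among them the AP-1 and NF-kB families, and arrested cells keep an active metabolism, enlarge, and release cytokines and proteases. In fibroblasts, the makers of collagen and other connective-tissue matrix, this state is known above all for its secreted inflammatory factors and for the silencing of genes of cell division. The account below goes from these anchors to the genes outside them: the composition of the RNA pool, genes that went from silent to expressed, neighbouring genes that moved together, surface receptors, transcription factors, transporters, adhesion, the nucleus and protein homeostasis.

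The libraries held 9451160 to 15596086 counted reads. Replicates correlated across genes with a Spearman coefficient of at least 0.992 and differed by more than counting noise in every pair (chi-square divided by its degrees of freedom, 3.02 to 7.69). HRAS, the gene name under which reads of the transgene may be counted, was at 1712, 1601, 1588 and 1531 CPM with DMSO and 2192, 2168, 2404 and 2405 CPM with 4OHT. ESR1, part of which the transgene holds, was at 153, 155, 149 and 144 CPM with DMSO and 199.8, 193, 223 and 218 CPM with 4OHT. For both genes every 4OHT library lay above every DMSO library. The labels state no difference in these transcripts, and the cause of the rise was not tested. The arrest and inflammation markers moved without overlap: MKI67 went from 28.3 ± 2.49 to 2.02 ± 0.973 CPM (mean ± SD, n = 4 each), LMNB1 from 39.1 ± 0.795 to 2.68 ± 0.357 CPM, CDKN1A from 1011 ± 22.5 to 2681 ± 75.1 CPM and IL1B from 0.355 ± 0.212 to 139 ± 13.1 CPM. CPM values are counts scaled to a common library size, corrected for composition. All 15 fibroblast markers were expressed in every library, with a summed level of 17086.7 to 18798.6 CPM with DMSO and 11639.1 to 12944.2 CPM with 4OHT. Of them 11 fell and 1 rose, so their level moved with the treatment; in such bulk libraries fewer cells of a type and less RNA per cell cannot be told apart. Of 22 epithelial markers, 16 stayed below 1 CPM in every library, as did 9 of 15 endothelial and 14 of 18 immune markers. EPCAM, a defining epithelial gene, was at a mean of 1.66 CPM with DMSO and 1.14 CPM with 4OHT, the endothelial PECAM1 and CDH5 had no read, and the immune PTPRC had 24 reads in the 8 libraries. The summed level was 126.992 to 151.21 CPM with DMSO and 57.3374 to 60.895 CPM with 4OHT for the epithelial, 21.099 to 23.5393 and 41.1667 to 44.9177 CPM for the endothelial, and 28.6819 to 34.5057 and 16.4534 to 20.1474 CPM for the immune markers.

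About as many genes passed the test as did not. By edgeR's quasi-likelihood test with Benjamini-Hochberg adjustment and a threshold of 0.05, 52.0% of the tested genes differed, 26.5% being higher and 25.5% lower with 4OHT. With any 1 of the 8 libraries left out the share was 46.9% to 48.4%, and with no filter on low counts it was 23.6% of 30032 genes. Below, "rose" and "fell" mean past that test. The near balance in number hid an imbalance in size: 821 genes (6.20%) rose and 1317 (9.94%) fell by more than 2-fold, whereas 307 (2.32%) rose and 379 (2.86%) fell by a factor beyond 4. The 8 values of a gene separated without overlap for 51.5% of the genes. Counted apart from this, and in part the same genes, 5149 genes (38.9%) had a 95% interval that lay wholly within 1.5-fold of no change, and 1366 of these (10.3% of all tested) passed the test all the same, so a call alone said little about size. The most abundant genes so bounded included GAPDH, a glycolytic enzyme used as a reference gene (8177 ± 292 to 9034 ± 173 CPM), cytoplasmic gamma actin ACTG1 (5897 ± 81.6 to 6425 ± 85.4 CPM) and the membrane-binding annexin ANXA2 (5616 ± 144 to 5585 ± 106 CPM). ANXA2 differed by a log2 fold change of −0.0079 (SE 0.053).

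The balance of directions rested on the scaling. With library totals in place of the composition scaling, the median log2 fold change of all tested genes moved from −0.01 to −0.17, 2387 genes rose and 4723 fell. Changes below are relative to the composition scaling, and both counts are given for each list described below in which the larger of the 2 counts changed sides or became equal with library totals.

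**Figure D1:**
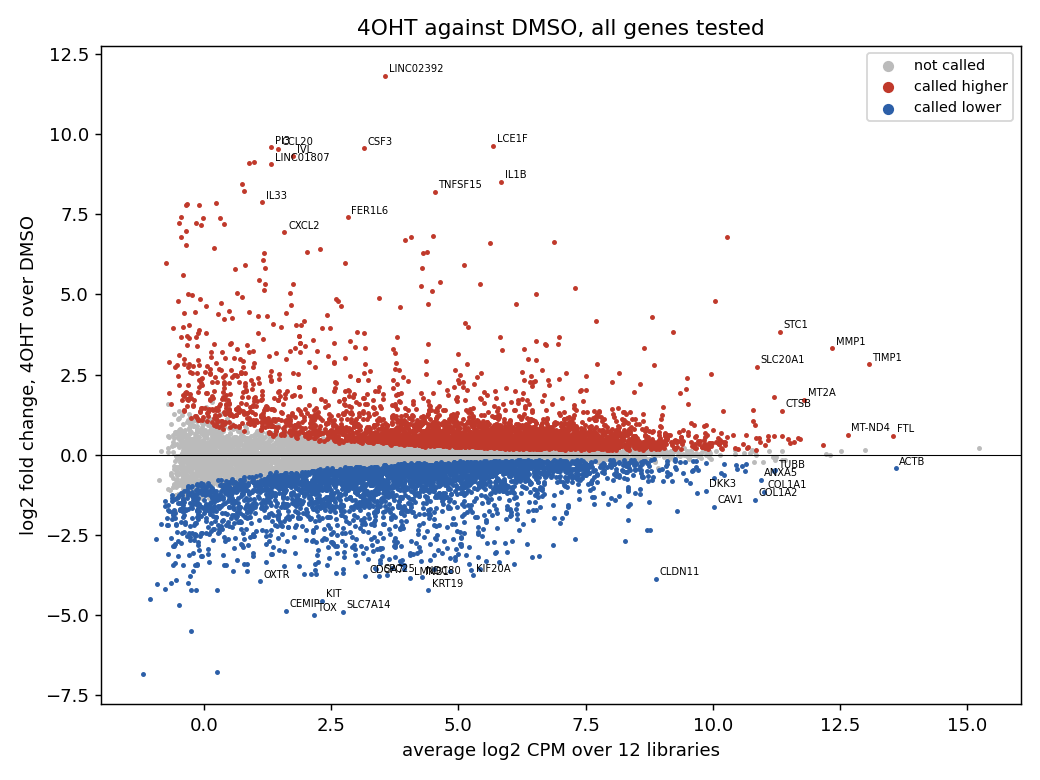
Each point is 1 of the 13248 tested genes: the x axis gives its average log2 CPM over the 12 libraries and the y axis its log2 fold change of 4OHT over DMSO. Red points rose, blue points fell and grey points did not pass the test; labels mark the highest and lowest changes and the largest gains and losses in reads, from LINC02392, with no DMSO read, at the top to TOX at −5.00. Points of genes with few reads in a group depend on the prior count of the fit.

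The pool of reads became more concentrated on a few genes. The 100 most abundant genes of each library held 25.5%, 25.6%, 25.5% and 26.2% of the reads with DMSO and 28.8%, 28.3%, 28.3% and 27.8% with 4OHT. The groups did not overlap (difference 2.60 percentage points; two-sided exact permutation test, p = 0.0286, the smallest that 4 against 4 can give). Without mitochondrially encoded genes the shares were 21.95% ± 0.219 and 24.1% ± 0.268 (exact permutation p = 0.0286). Fewer genes were detected at an equal depth of 9451160 reads: 19464.5 ± 216 genes with DMSO and 18670.2 ± 146 with 4OHT (exact permutation p = 0.0286). With all reads, where the 4OHT libraries were deeper, the difference was −322.8 genes and did not pass (exact permutation p = 0.429).

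A single secreted inhibitor took the largest share of what was gained. TIMP1, which blocks matrix metalloproteases, stood at 1842, 2095, 1876 and 2183 CPM with DMSO and 14534, 14692, 13736 and 13336 CPM with 4OHT. It went from 0.212% ± 0.0144 to 1.34% ± 0.052 of all reads, so that more than 1 read in 100 came from it in every 4OHT library. The collagenase MMP1, one of the enzymes that TIMP1 inhibits, went from 708 ± 43.7 to 7071 ± 166 CPM (log2 fold change 3.32 with an SE of 0.067). The other large gains belonged to the iron-storage chain FTL (10770.3 ± 784 to 16234 ± 1323 CPM), the metal-binding MT2A (1694 ± 245 to 5510.4 ± 707 CPM), the secreted glycoprotein stanniocalcin STC1 (231 ± 14.4 to 3314 ± 102 CPM), the phosphate importer SLC20A1 (440.0 ± 32.4 to 2957 ± 113 CPM), the lysosomal protease CTSB (1540.4 ± 37.3 to 3968 ± 83.0 CPM) and the mitochondrially encoded MT-ND4 of respiratory complex I (4842 ± 56.3 to 7442 ± 238 CPM). Mitochondrially encoded genes as a whole went from 6.29% ± 0.259 to 7.19% ± 0.328 of reads (exact permutation p = 0.0286).

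The largest losses in reads were led by a cytoskeletal gene and collagens. ACTB, cytoplasmic beta actin and a common reference gene, was at 15069.6, 15199, 14702 and 15142 CPM with DMSO and 11108, 11224, 11205 and 11183 CPM with 4OHT. No 4OHT library reached the lowest DMSO library, and the fall was −0.43 on the log2 scale (SE 0.053). The collagen I chains COL1A1 (3335 ± 201 to 1498 ± 128 CPM) and COL1A2 (3315 ± 185 to 1253 ± 77.0 CPM) fell as a pair. CAV1, the coat protein of caveolae, fell from 1746 ± 82.8 to 565 ± 21.7 CPM, the phospholipid-binding ANXA5 from 2728 ± 54.6 to 1576 ± 8.88 CPM, the tubulin TUBB from 2941 ± 28.1 to 2047 ± 28.6 CPM and the secreted DKK3 from 1449.7 ± 85.3 to 665 ± 22.7 CPM. CLDN11, a claudin that forms tight junction strands, combined a high level with a large fold change. It was at 868, 980.1, 1068 and 1089.5 CPM with DMSO and 58.9, 69.6, 74.2 and 70.8 CPM with 4OHT, so the highest 4OHT library lay far below the lowest DMSO library (log2 fold change −3.87 with an SE of 0.17).

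**Figure D2:**
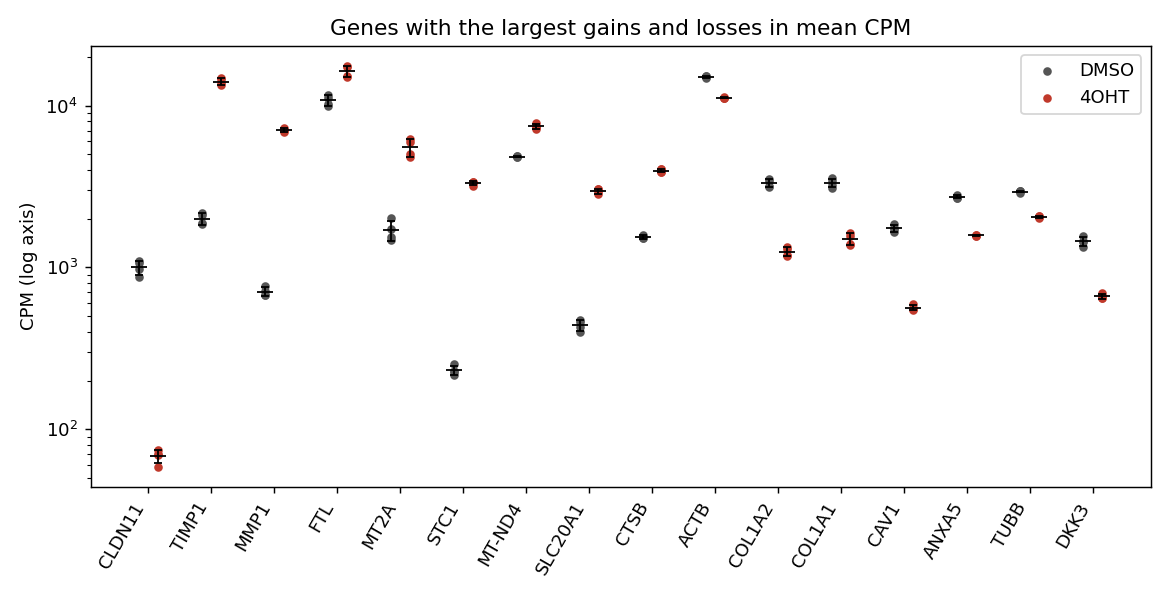
CPM on a log axis for the genes with the 8 largest gains and 8 largest losses in mean CPM, not ordered by size, 1 point per library, with the mean and SD of 4 libraries; grey is DMSO and red is 4OHT. TIMP1 passes from about the level of COL1A1 to near that of ACTB, and CLDN11 shows the widest gap among the losses.

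The highest fold changes were led by a long non-coding RNA and by genes of the skin barrier. LINC02392 had no read in any DMSO library and 1666 reads with 4OHT, at least 509-fold higher taking 3 reads in the 4 DMSO libraries as the floor. Its 4OHT libraries stood at 38.2, 32.9, 30.1 and 28.0 CPM. LCE1F, a late cornified envelope protein of the outer epidermis, was at 0, 0, 0.0922 and 0.293 CPM with DMSO and 103, 94.1, 88.0 and 74.1 CPM with 4OHT (log2 fold change 9.63 with an SE of 0.30). PI3 (elafin, an inhibitor of elastase) and IVL (involucrin, the scaffold of the cornified envelope) had no DMSO read and were at least 110-fold and 91.1-fold higher. TNFSF15, a cytokine of the TNF family, went from 0.141 ± 0.178 to 39.4 ± 3.21 CPM. FER1L6, a ferlin, went from 3 reads to 631, a ratio of 193 (95% exact counting interval 65.7 to 938). The remaining highest changes of the rule belonged to CSF3, CCL20, IL33, CXCL2 and IL1B, inflammatory cytokines and chemokines, and to LINC01807, at least 75.2-fold higher.

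The lowest fold changes among genes with average log2 CPM above 1 were led by genes of several kinds. TOX, a nuclear factor with an HMG box best known from T cells, was at 11.3, 11.8, 13.4 and 13.3 CPM with DMSO and 0.0966, 0.638, 0.414 and 0.333 CPM with 4OHT. SLC7A14, of the cationic amino acid transporter family, fell from 18.7 ± 2.31 to 0.597 ± 0.240 CPM (log2 fold change −4.92 with an SE of 0.23). CEMIP, which takes part in the breakdown of hyaluronan, fell from 8.09 ± 2.39 to 0.258 ± 0.0951 CPM, the stem cell factor receptor KIT from 14.6 ± 1.76 to 0.585 ± 0.348 CPM, the keratin KRT19 from 58.6 ± 6.997 to 3.08 ± 0.659 CPM and the oxytocin receptor OXTR from 5.79 ± 1.06 to 0.381 ± 0.242 CPM. All 4 had every 4OHT library below every DMSO library, because the rule took only genes without overlap between the groups. The kinetochore genes NDC80 and SPC25, the kinesin KIF20A, the lamin LMNB1 and CDCA7, which works with the remodeller HELLS, made up the rest with CLDN11, between −3.87 and −3.76 on the log2 scale. Below that abundance the cell-cycle factor E2F8, named after its values were seen, had 146 reads with DMSO and 1 with 4OHT (ratio 159, counting interval 28.1 to 6332).

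Genes that passed from no read to expression outnumbered the reverse among the tested genes, but the filter on low counts bears on this count. Among genes that passed the test, 26 had no read in the 4 DMSO libraries together, against 1, LINC00707, with no 4OHT read (49 reads with DMSO, at least 17.8-fold lower). At the equal depth of 9451160 reads per library the counts were 27 and 1. A gene with no DMSO read entered the test only through libraries given 4OHT, so it could only be higher. The filter took in more libraries with 4OHT than without, so these counts support nothing beyond the values. A wider measure gave a smaller asymmetry: 46 genes went from a mean below 1 CPM to above 5 CPM, and 26 the other way. CYP19A1, the aromatase that makes oestrogens, had 0 and 164 reads, at least 50.1-fold higher. Surface proteins of immune cells were among them: the chemokine receptor CXCR4 (107 reads, at least 32.7-fold higher), the receptor CCR1 (59 reads, at least 18.03-fold) and the activation marker CD69 (51 reads, at least 15.6-fold). So were genes of neurons, with the vesicle-priming factor UNC13A (76 reads, at least 23.2-fold), the ephrin receptor EPHA7 (44 reads, at least 13.4-fold) and the synaptic organiser CBLN2 (40 reads, at least 12.2-fold). All of these but CXCR4 were chosen after their values were seen. These genes remained low in absolute terms, with CXCR4 at 0.966, 1.20, 1.86 and 3.66 CPM. The receptor and its ligand went opposite ways, since CXCL12, the chemokine that CXCR4 binds, fell from 19.1 ± 2.04 to 1.98 ± 0.667 CPM.

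Some of the changes came in runs along a chromosome. A run was 4 or more tested protein-coding genes in a row that each changed by more than 2-fold in 1 direction; 5 runs were found, 4 of them higher. Genes that were not tested were passed over, so members need not be direct neighbours. Members without a DMSO read entered only through libraries given 4OHT. The longest, on chromosome 4, held 10 genes from the chemokines CXCL8, CXCL6, CXCL1, CXCL5, CXCL3 and CXCL2 through MTHFD2L to the EGF receptor ligands EREG and AREG and to PARM1. MTHFD2L, a mitochondrial folate enzyme that lies between the 2 groups of ligands, rose least (log2 fold change 1.03 with an SE of 0.20). Of the 3 tested genes on either side, RCHY1, next after the run, was the only one to pass the test (log2 fold change 0.38 with an SE of 0.15), and it did not pass without any 1 of the 8 libraries (edgeR, adjusted p of 0.0504 to 0.11). The rise of CXCL6, from 6 reads to 33, did not pass without DMSO library 18, 19 or 20 or without 4OHT library 22 (adjusted p of 0.054 to 0.0815). On chromosome 1, LCE3D, LCE2C, LCE2A, LCE1F and IVL of the epidermal differentiation complex rose. LCE2C had 1 read with DMSO and 49 with 4OHT (ratio 44.9, counting interval 7.70 to 1810.3), and LCE3D none and 29 (at least 8.86-fold higher). The S100 genes next in order went their own way: S100A6 had a log2 fold change of −0.24, S100A4 of −1.73 and S100A3 of −1.94. On chromosome 11 the proteases MMP8, MMP10, MMP1 and MMP3 rose. On chromosome 9, CDKN2A, which encodes the cell-cycle inhibitor p16 and the p53 activator ARF, rose from 31.2 ± 0.636 to 72.2 ± 7.91 CPM and CDKN2B, encoding the inhibitor p15, from 13.96 ± 0.838 to 179 ± 15.4 CPM. The rise of p15 was thus the larger one, and it was shared by the flanking MTAP (41.9 ± 3.59 to 83.9 ± 6.56 CPM) and by DMRTA1, with 2 reads and 82 (ratio 37.6, counting interval 10.1 to 316). The run that fell, on chromosome 10, held CXCL12, RASSF4, DEPP1 and ZNF22. The number of runs depended on the rule: 10 with genes of all types, 29 at 1.5-fold, 33 with both, 12 with library totals, 3 with only the 8 libraries and 2 with a mean CPM of at least 1. Reads may be shared between the similar LCE genes and between CXCL1, CXCL2 and CXCL3.

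**Figure D3:**
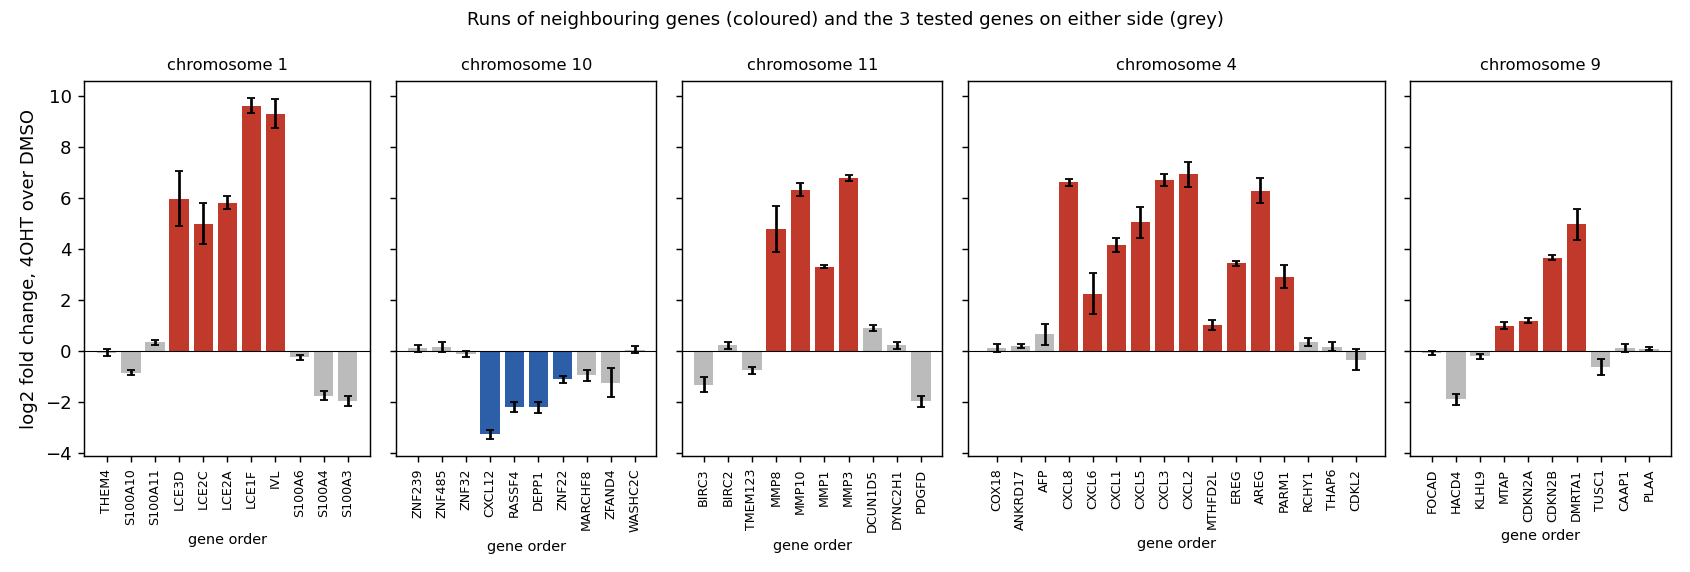
Log2 fold change (4OHT over DMSO, bars with SE) of the 5 runs of neighbouring tested protein-coding genes, in chromosome order from left to right in each panel; red and blue bars are run members and grey bars the 3 tested genes on either side. Within the chromosome 4 run the bars of genes with more than 3 DMSO reads reach from MTHFD2L at 1.03 to CXCL3 at 6.71, and RCHY1 beside it stands at 0.38.

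Promoter sequences of the members are shown to give the short motifs that AP-1, NF-kB and the cell-cycle repressors are known to bind, as letters and not as bound sites. The windows were taken from RefSeq (GRCh38.p14), end at the base before the annotated start, and run 5′ to 3′ on the gene's strand. The promoters printed were chosen because they hold these letters. The first set, upstream of 4 genes that rose by more than 4-fold, has in capitals the AP-1 letters TGANTCA and the TATA box letters TATAAA.
MMP10 (chr11:102780629-102780768, minus strand): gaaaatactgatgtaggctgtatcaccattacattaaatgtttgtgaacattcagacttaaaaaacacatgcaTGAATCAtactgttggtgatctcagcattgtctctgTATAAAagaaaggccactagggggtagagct
CXCL8 (chr4:73740429-73740568, plus strand): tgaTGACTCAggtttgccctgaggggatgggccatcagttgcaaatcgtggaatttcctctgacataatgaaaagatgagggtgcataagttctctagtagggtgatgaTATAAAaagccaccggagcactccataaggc
IVL (chr1:152908406-152908545, plus strand): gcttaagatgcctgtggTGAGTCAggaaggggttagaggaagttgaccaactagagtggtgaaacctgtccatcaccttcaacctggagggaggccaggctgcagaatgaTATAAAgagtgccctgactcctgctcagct
TFPI2 (chr7:93890754-93890893, minus strand): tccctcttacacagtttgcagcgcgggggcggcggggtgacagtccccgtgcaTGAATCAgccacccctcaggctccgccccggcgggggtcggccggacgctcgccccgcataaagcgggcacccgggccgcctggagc
The AP-1 letters lie 67 (MMP10), 137 (CXCL8), 123 (IVL) and 87 (TFPI2) bases before the start, counted at their first base, and MMP10, CXCL8 and IVL hold TATAAA at 31, 31 and 30 bases. MMP10 was at 0.685, 0.450, 0.184 and 0.0733 CPM with DMSO and 27.8, 23.4, 28.3 and 30.9 CPM with 4OHT, and the protease inhibitor TFPI2 at 46.5, 52.7, 47.0 and 47.5 CPM with DMSO and 1451, 1324, 1313 and 1279 CPM with 4OHT. Both groups of libraries were far apart in each case.

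The second set holds the promoters of 5 of the 6 chemokines of the chromosome 4 run, with the NF-kB letters (GGGA, then any base, then TTTCC) in capitals.
CXCL1 (chr4:73869293-73869392, plus strand): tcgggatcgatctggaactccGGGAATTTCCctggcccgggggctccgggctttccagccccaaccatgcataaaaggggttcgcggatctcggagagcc
CXCL2 (chr4:74099196-74099295, minus strand): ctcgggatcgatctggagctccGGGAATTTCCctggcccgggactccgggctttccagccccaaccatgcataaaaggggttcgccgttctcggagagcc
CXCL3 (chr4:74038690-74038789, minus strand): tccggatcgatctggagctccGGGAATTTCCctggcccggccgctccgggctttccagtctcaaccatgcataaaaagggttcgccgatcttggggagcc
CXCL5 (chr4:73998678-73998777, minus strand): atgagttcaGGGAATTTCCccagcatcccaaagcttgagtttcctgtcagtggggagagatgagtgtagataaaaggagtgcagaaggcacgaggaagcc
CXCL6 (chr4:73836578-73836677, plus strand): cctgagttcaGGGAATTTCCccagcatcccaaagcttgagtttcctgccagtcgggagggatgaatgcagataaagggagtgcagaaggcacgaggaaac
The sixth, CXCL8, shown in the first set, has no exact match to these letters in the window searched. Its printed sequence holds TGGAATTTCC, which departs from them at the first base only, so the count of exact letters misses it. In the 5 the letters are GGGAATTTCC, 78 to 91 bases before the start, and CXCL1, CXCL2 and CXCL3 share most of the surrounding bases, as CXCL5 and CXCL6 do. Their levels with 4OHT were nonetheless unlike: 18.3 ± 1.87 CPM for CXCL3, 6.89 ± 0.597 CPM for CXCL1, 6.22 ± 1.15 CPM for CXCL2, 5.17 ± 0.747 CPM for CXCL5 and 0.654 ± 0.325 CPM for CXCL6. These levels are not corrected for gene length.

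The third set comes from 4 genes of mitosis that fell, with the cell-cycle homology region letters TTTGAA, or TTCAAA on the other strand, in capitals, and in KIF15 also the E2F letters TTTGGCGC read on the other strand.
PLK1 (chr16:23678829-23678888, plus strand): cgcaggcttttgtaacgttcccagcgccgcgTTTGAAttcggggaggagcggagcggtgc
KIF11 (chr10:92593070-92593129, plus strand): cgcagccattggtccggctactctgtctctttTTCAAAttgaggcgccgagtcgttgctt
CCNB2 (chr15:59105086-59105145, plus strand): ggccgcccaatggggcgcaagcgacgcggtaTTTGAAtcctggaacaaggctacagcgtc
KIF15 (chr3:44761734-44761793, plus strand): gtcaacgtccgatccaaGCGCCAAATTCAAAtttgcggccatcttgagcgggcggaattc
The capitals begin 28 to 43 bases before the start. The kinase PLK1 fell from 114 ± 2.57 to 11.2 ± 1.67 CPM, the spindle motor KIF11 from 58.4 ± 7.29 to 6.43 ± 1.25 CPM, the cyclin CCNB2 from 107 ± 7.34 to 16.3 ± 1.40 CPM and the kinesin KIF15 from 12.6 ± 0.981 to 0.969 ± 0.0772 CPM.

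Across 9767 protein-coding genes with a promoter in the table (82.1% of those tested), counted on both strands of 250 bases upstream and 50 downstream, the AP-1 letters occurred in 4.50% of all promoters, in 12.2% of the 180 of genes that rose by more than 4-fold and in 3.00% of the 267 of genes that fell as much. TATAAA occurred in 5.56%, 21.1% and 8.24%, and the NF-kB letters in 0.563%, 3.33% and 1.12%, the latter from only 55, 6 and 3 promoters. The 6 promoters of genes that rose were those of IL6, CXCL1, CXCL2, CXCL3, CXCL5 and CXCL6. All but that of IL6 are the related chemokine promoters printed above. TTTGAA occurred in 9.79%, 13.9% and 26.2%, and within 60 bases of the start in 1.40%, 2.22% and 8.24%. The E2F letters (TTTCCCGC or TTTGGCGC) occurred in 3.71%, 1.67% and 9.74%. The ETS letters CCGGAAGT occurred in 9.20%, 0.556% and 4.49%, and the GC box letters GGGCGG in 70.7%, 45.0% and 68.9%. Base composition differed beside these shares: the median content of G and C was 65.3% in all promoters, 58.5% in those of genes that rose and 62.7% in those of genes that fell. Its part in them was not tested.

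Lists of genes by function gave a view beyond single genes. There were 46 such lists beside 4 of cell type markers. For comparison, 26.5% of all tested genes rose and 25.5% fell, with a median log2 fold change of −0.01. Lists with many members lower than higher included those of the nucleus, adhesion and 2 families of surface receptors, and lists with many higher those of mitochondria, metals and carriers of sugars and amino acids. Of 44 ion channel and calcium-handling genes, 18 fell and 8 rose, with the potassium channel KCNK2 falling from 13.3 ± 1.88 to 1.23 ± 0.436 CPM and the irritant-sensing channel TRPA1 rising from 57.4 ± 4.05 to 183 ± 25.1 CPM. Because the lists were chosen with earlier results known, counts and medians are given as descriptions.

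**Figure D4:**
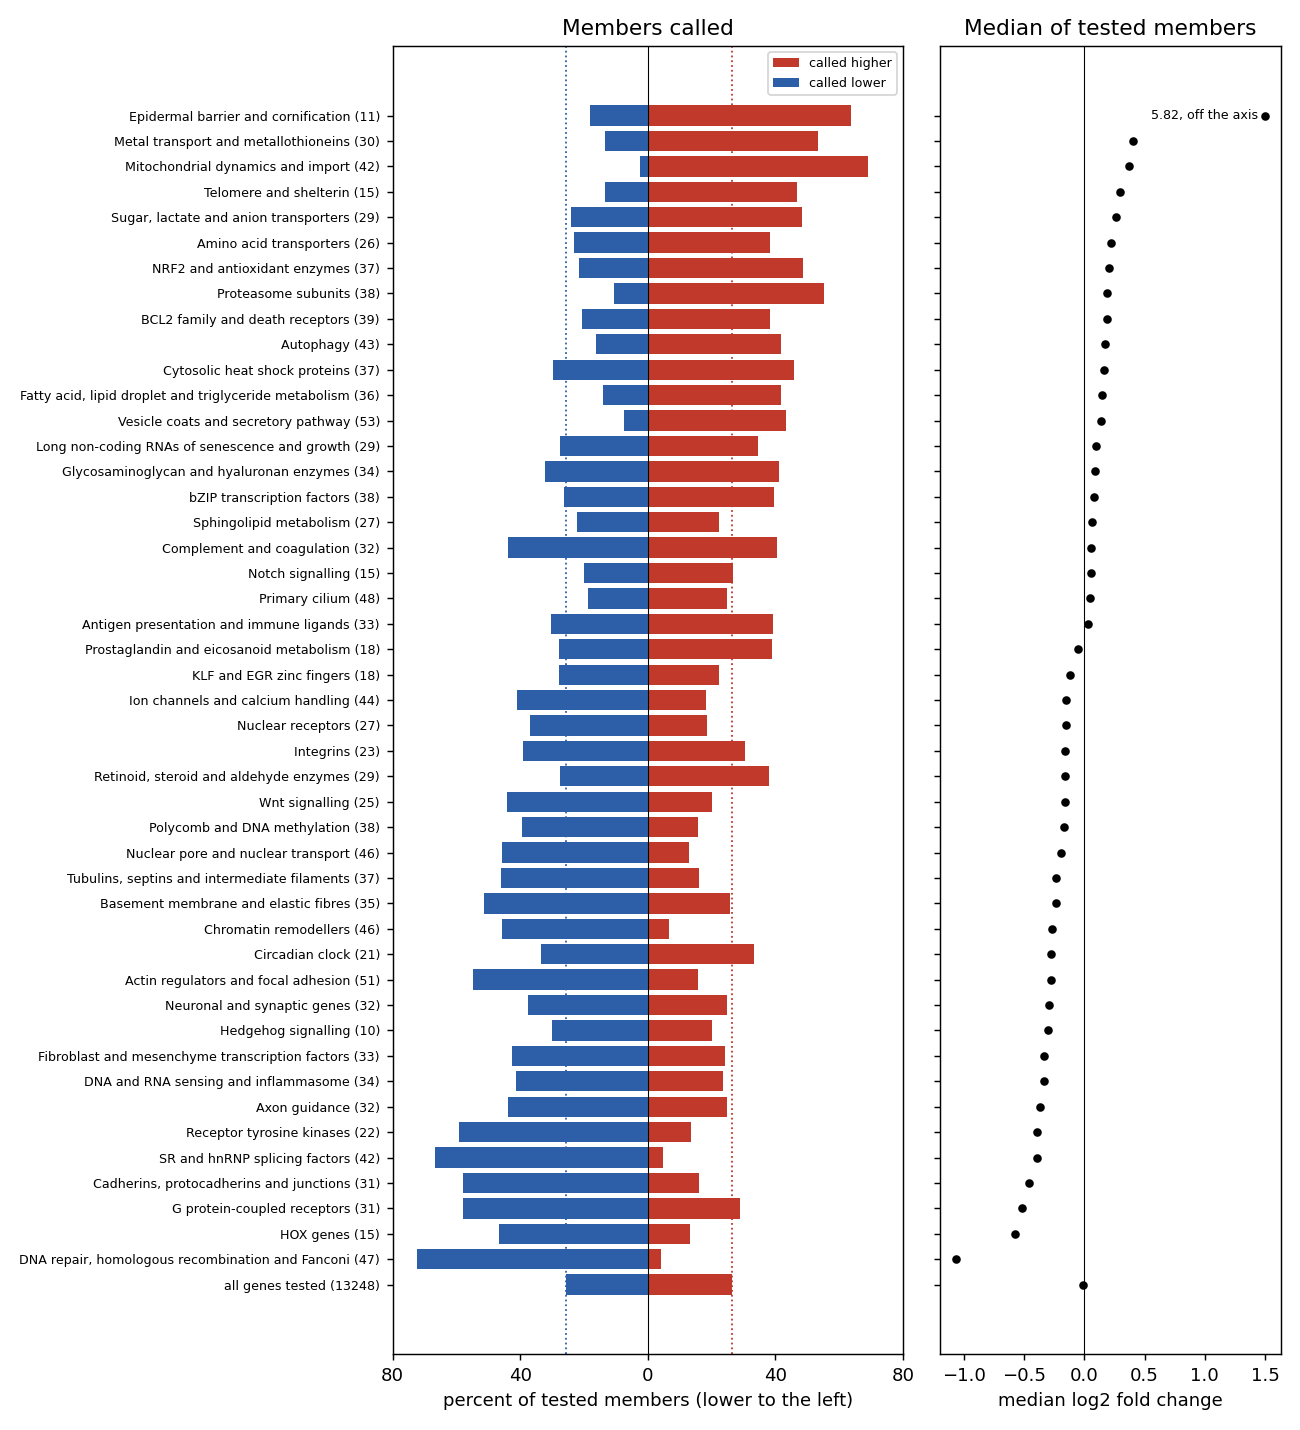
Left, for each list, the percent of tested members that rose (red, to the right) and fell (blue, to the left), with dotted lines at the shares of all genes tested (26.5% and 25.5%); the number tested is in brackets. Right, the median log2 fold change of the tested members; the DNA repair list lies lowest at −1.07 and the epidermal barrier list, off the axis, at 5.82 over 11 tested members, or 3.15 with genes without a DMSO read set at their lower limit.

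In 2 lists of surface receptors more members fell than rose. Of 22 receptor tyrosine kinases, 13 fell and 3 rose (median −0.39). AXL, a receptor for the secreted GAS6, was at 1053, 1120.1, 1122 and 1115 CPM with DMSO and 309.6, 324, 313 and 357 CPM with 4OHT. GAS6 itself fell with it, from 932 ± 19.2 to 182 ± 11.7 CPM (log2 fold change −2.35 with an SE of 0.072), so that a receptor and its ligand, both well expressed in the controls, lost most of their reads. The platelet-derived growth factor receptor PDGFRB went from 95.8 ± 8.61 to 42.0 ± 3.93 CPM and the insulin receptor INSR from 11.5 ± 1.498 to 4.57 ± 0.735 CPM. RET, a receptor for GDNF-family ligands, rose from 1.07 ± 0.234 to 3.10 ± 0.957 CPM, and GDNF from 1.09 ± 0.403 to 2.95 ± 0.852 CPM, both to low levels.

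Of 31 G protein-coupled receptors, 18 fell and 9 rose (median −0.51). The lysophosphatidic acid receptor LPAR1 fell from 348 ± 11.1 to 119.9 ± 7.97 CPM, the prostaglandin E2 receptor PTGER2 from 86.2 ± 4.38 to 20.99 ± 2.20 CPM and the serotonin receptor HTR2B from 103 reads to 2 (ratio 56.2, counting interval 15.2 to 470.0). Against these, the protease-activated receptor F2RL1 rose from 24.6 ± 0.737 to 73.3 ± 8.90 CPM. Grouped by the stem of the symbol instead, CD surface antigens counted 12 of 29 higher and 7 lower, or 8 and 9 with library totals. The GPR stem, mostly orphan receptors, counted 8 of 22 higher and 3 lower. Guidance and morphogen genes were mixed. Of 32 axon guidance genes, 14 fell and 8 rose, with the secreted SLIT2 at 83.7, 83.4, 82.9 and 92.7 CPM with DMSO and 17.5, 17.9, 13.3 and 13.8 CPM with 4OHT and the netrin receptor DCC at 11.5, 13.3, 8.21 and 12.01 CPM with DMSO and 52.0, 47.0, 45.3 and 51.9 CPM with 4OHT. SLIT2 fell and DCC rose without overlap. Among 25 Wnt pathway genes, 11 fell and 5 rose: the receptors FZD2 (12.7 ± 0.511 to 1.89 ± 0.550 CPM) and FZD7 (39.3 ± 3.32 to 10.9 ± 1.84 CPM) and the secreted antagonists SFRP1 (163 ± 15.4 to 39.3 ± 2.29 CPM) and DKK1 (114 ± 11.6 to 49.1 ± 3.25 CPM) fell, whereas the antagonist DKK2 rose from 0.481 ± 0.224 to 6.25 ± 1.47 CPM. In the Notch list 4 of 15 members rose and 3 fell (4 and 4 with library totals), and its best known target genes HEY1 (0.568 ± 0.323 to 6.23 ± 0.990 CPM) and HES1 (0.275 ± 0.162 to 1.84 ± 0.164 CPM) were among those that rose.

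Transcription factors of the fibroblast's position and lineage fell more often than they rose. Of the 15 tested of 39 HOX genes, which record position along the body axis, 7 fell and 2 rose (median −0.58), with HOXA3 at 7.37 ± 1.52 to 2.74 ± 0.308 CPM and HOXB2, which rose, at 36.5 ± 4.68 to 50.1 ± 8.16 CPM. With no filter on low counts the HOX median was 0.20. Of the 7 HOX genes that fell, 6 fell by more than 2-fold. Of 33 mesenchymal factors, 14 fell, 7 of them by more than 2-fold, and 8 rose. MEIS1, a HOX partner, fell from 135 ± 8.73 to 62.0 ± 7.22 CPM, the lung mesenchyme factors TBX5 from 41.1 ± 5.87 to 20.2 ± 1.37 CPM and TCF21 from 31.5 ± 3.21 to 14.9 ± 1.90 CPM, whereas the repressor of epithelial genes ZEB1 rose from 104 ± 11.9 to 166 ± 10.3 CPM. In the bZIP family, which holds the AP-1 subunits, 15 rose and 10 fell of 38. With library totals 10 rose and 13 fell, so the direction of the family rested on the scaling. JUNB (17.9 ± 0.917 to 48.6 ± 2.12 CPM) and FOS (1.34 ± 0.453 to 3.34 ± 0.680 CPM) rose, while FOSL1 (187 ± 9.98 to 113 ± 6.02 CPM) and FOSL2 (50.6 ± 1.999 to 20.04 ± 1.10 CPM) fell. The immediate-early factors EGR1 (37.4 ± 3.83 to 112 ± 8.13 CPM) and EGR2 (0.435 ± 0.233 to 11.01 ± 1.66 CPM) rose. The circadian clock list split evenly, with 7 of 21 higher and 7 lower, or 7 and 10 with library totals: the repressor BHLHE40 stood at 22.1, 18.4, 24.4 and 26.9 CPM with DMSO and 124, 121, 131 and 122 CPM with 4OHT, whereas the output factor DBP fell from 1.95 ± 0.364 to 0.568 ± 0.283 CPM and PER3 from 5.51 ± 1.015 to 1.87 ± 0.170 CPM.

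Transport and metabolism held several of the largest changes outside the secreted factors. SLC16A6, of the monocarboxylate transporter family, was at 7.73, 6.60, 7.01 and 7.25 CPM with DMSO and 275, 237, 276 and 252 CPM with 4OHT (log2 fold change 5.19 with an SE of 0.12). SLC20A1, which brings phosphate into the cell, was at 472, 460.2, 426 and 402 CPM with DMSO and 2904, 2823, 3064 and 3036 CPM with 4OHT, and SLC6A15, a carrier of neutral amino acids, at 60.2, 58.7, 63.5 and 50.3 CPM with DMSO and 789, 769, 874 and 847 CPM with 4OHT. In all 3 every 4OHT library lay at least several-fold above every DMSO library. Of 29 sugar, lactate and anion transporters, 14 rose and 7 fell, and the glucose transporters parted: SLC2A3 (GLUT3) rose from 73.0 ± 2.999 to 182 ± 4.43 CPM and SLC2A1 (GLUT1) fell from 242 ± 3.40 to 162 ± 7.27 CPM. Of 26 amino acid transporters, 10 rose and 6 fell. The cystine importer SLC7A11 rose from 36.3 ± 6.10 to 118 ± 7.95 CPM and its partner chain SLC3A2 from 166 ± 5.80 to 376 ± 16.8 CPM.

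The metal list rose as 16 of 30 members, with 4 lower (median 0.40). Beside MT2A it held MT1X (10.8 ± 0.831 to 37.6 ± 5.61 CPM), the haem-degrading HMOX1 (28.8 ± 1.31 to 114 ± 10.5 CPM), the copper importer SLC31A1 (74.2 ± 3.63 to 176 ± 13.6 CPM) and both ferritin chains, FTL and FTH1 (634 ± 36.0 to 967 ± 59.2 CPM). The only known cellular iron exporter, SLC40A1 (ferroportin), fell from 10.2 ± 1.74 to 3.24 ± 0.841 CPM. Reads of the near-identical metallothioneins may be shared. Of 37 antioxidant genes, 18 rose and 8 fell; the count was 14 and 11 with library totals.

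Lipid mediators changed at single steps. PTGS2, the inducible cyclooxygenase that starts prostaglandin synthesis, was at 1.08, 0.525, 1.84 and 0.366 CPM with DMSO and 34.1, 29.2, 41.1 and 36.8 CPM with 4OHT (log2 fold change 5.28 with an SE of 0.24). PTGES, the synthase that completes prostaglandin E2, fell from 1.23 ± 0.402 to 0.188 ± 0.159 CPM (log2 fold change −2.78 with an SE of 0.56), and the constitutive cyclooxygenase PTGS1 from 75.8 ± 4.53 to 37.3 ± 0.948 CPM. The list as a whole had 7 of 18 higher and 5 lower, or 7 and 7 with library totals. SPHK1, which makes sphingosine 1-phosphate, rose from 15.6 ± 2.25 to 123 ± 28.5 CPM, in a list of 27 with 6 higher and 6 lower (6 and 10 with library totals). ANGPTL4, a secreted inhibitor of lipoprotein lipase, was at 20.8, 22.6, 21.8 and 16.6 CPM with DMSO and 370.5, 346, 381 and 365 CPM with 4OHT (log2 fold change 4.16 with an SE of 0.11). It rose with G0S2, an inhibitor of fat breakdown (2.78 ± 0.714 to 17.4 ± 1.59 CPM), and DGAT2, which completes triglyceride synthesis (0.366 ± 0.208 to 4.30 ± 0.468 CPM), while the fatty acid carriers FABP3 (26.9 ± 2.41 to 13.5 ± 1.17 CPM) and FABP4 (23.8 ± 1.34 to 11.9 ± 1.98 CPM) fell. That list had 15 of 36 higher and 5 lower. With library totals 12 rose and 8 fell, and its median of 0.14 was −0.01.

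Adhesion and the cytoskeleton fell broadly. Of 51 actin regulators and focal adhesion genes, 28 fell and 8 rose (median −0.28). The formin DIAPH3 fell from 38.5 ± 2.09 to 5.16 ± 0.481 CPM, the non-muscle myosin heavy chain MYH10 from 60.6 ± 3.64 to 13.4 ± 0.554 CPM, the myosin kinase MYLK from 419 ± 13.3 to 165 ± 11.95 CPM, smooth muscle actins ACTG2 from 671 ± 32.3 to 239.9 ± 6.23 CPM and ACTA2 from 194 ± 3.80 to 87.2 ± 4.12 CPM, and the filamin FLNA from 963 ± 60.5 to 688 ± 28.6 CPM. Of 31 cadherins and junction genes, 18 fell and 5 rose (median −0.46), among them CLDN11, the cadherins CDH2 (70.1 ± 8.66 to 36.9 ± 2.02 CPM) and CDH11 (107 ± 7.88 to 42.8 ± 3.83 CPM) and the giant cadherin FAT1 (81.3 ± 4.404 to 39.1 ± 4.43 CPM). Of 37 tubulins, septins and intermediate filament genes, 17 fell and 6 rose, led by KRT19 and by the tubulin-sequestering STMN1 (794 ± 73.9 to 155 ± 9.10 CPM).

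The integrins and the basement membrane changed in both directions. Of 23 integrin genes 9 fell and 7 rose. ITGB3, the beta chain of the vitronectin receptor, was at 5.97, 8.92, 8.21 and 5.57 CPM with DMSO and 45.7, 48.8, 40.4 and 43.5 CPM with 4OHT, and the collagen-binding ITGA2 and fibronectin-binding ITGA5 rose from 164 ± 14.04 to 345 ± 22.9 CPM and from 501 ± 25.4 to 946 ± 21.2 CPM. Its usual alpha partner, ITGAV, fell from 64.8 ± 3.46 to 40.9 ± 3.76 CPM. Of 35 basement membrane and elastic fibre genes, 18 fell and 9 rose. The fibulins FBLN1 (139 ± 6.56 to 21.6 ± 1.31 CPM) and FBLN2 (17.9 ± 1.29 to 3.79 ± 0.588 CPM) and the related EFEMP2 (268 ± 9.14 to 86.2 ± 3.82 CPM) fell, and the anchoring-fibril collagen COL7A1 (5.30 ± 0.474 to 15.8 ± 1.68 CPM) rose.

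Most lists of the nuclear machinery had more members lower than higher. Members tied to cell division were not separated from the others, so a fall apart from the arrest was not tested. Of 47 genes of homologous recombination and Fanconi repair, 34 fell and 2 rose, with a median log2 fold change of −1.07. EXO1, a DNA end resection nuclease, was at 20.7, 24.1, 20.1 and 20.7 CPM with DMSO and 2.61, 1.99, 1.24 and 2.86 CPM with 4OHT, and BARD1, the partner of BRCA1, at 29.6, 30.8, 24.6 and 27.5 CPM with DMSO and 2.90, 2.63, 3.24 and 2.73 CPM with 4OHT. Neither gene had overlapping groups. FANCD2 fell from 19.6 ± 0.983 to 2.78 ± 0.406 CPM and BRCA2 from 10.9 ± 1.16 to 1.96 ± 0.506 CPM, whereas the helicase RECQL (log2 fold change 0.33 with an SE of 0.095) and the damage kinase ATM (log2 fold change 0.35 with an SE of 0.14) rose. Neither passed with library totals, and ATM did not pass without any 1 of the 8 libraries (edgeR, adjusted p of 0.0594 to 0.157). Of 42 SR and hnRNP splicing factors, 28 fell and 2 rose (median −0.40), nearly all by less than 2-fold: HNRNPA1 fell from 352 ± 14.5 to 219 ± 9.87 CPM, SRSF1 from 245 ± 10.6 to 159 ± 5.87 CPM and HNRNPA2B1 from 636 ± 27.4 to 434 ± 12.7 CPM. Of 46 nuclear pore and transport genes, 21 fell and 6 rose (28 and 1 with library totals), from KPNA2, an import receptor (573 ± 21.4 to 325 ± 8.95 CPM), to NUP107 of the pore scaffold (55.6 ± 3.29 to 29.1 ± 1.30 CPM). Of 46 chromatin remodellers 21 fell and 3 rose, with HELLS at 33.2 ± 2.31 to 6.53 ± 0.9995 CPM and the SWI/SNF subunits SMARCC2 (72.7 ± 3.01 to 37.9 ± 1.41 CPM) and SMARCE1 (109 ± 7.53 to 58.7 ± 1.11 CPM). The telomere list went the other way, with 7 of 15 higher and 2 lower. NOP10, a protein of telomerase and of the box H/ACA particles, rose from 209 ± 25.6 to 421 ± 39.7 CPM, and the single-strand cap protein POT1 fell from 14.3 ± 2.52 to 7.005 ± 1.13 CPM. With library totals 3 telomere genes rose and 4 fell.

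Genes of mitochondrial upkeep mostly rose. Of 42 tested genes of mitochondrial dynamics, import and genome maintenance, 29 rose and 1, the fission GTPase DNM1L, fell (log2 fold change −0.24 with an SE of 0.087). That fall did not pass without DMSO library 17 or 18 or without 4OHT library 21, 22 or 23 (edgeR, adjusted p of 0.0513 to 0.0686). The median log2 fold change was 0.37, and 20 rose and 4 fell with library totals. The folds were small and the spread smaller: the import receptor TOMM20 was at 131, 136, 127 and 135 CPM with DMSO and 215, 201, 209 and 193 CPM with 4OHT, and the matrix chaperone HSPA9 at 403, 415, 414 and 370.4 CPM with DMSO and 635, 605, 601 and 634 CPM with 4OHT. The polymerases of the mitochondrial genome, POLG (42.5 ± 6.33 to 63.8 ± 5.70 CPM) and POLRMT (32.2 ± 2.52 to 49.2 ± 0.450 CPM), rose too. Mitochondrial ribosomal proteins, grouped by the stem of their symbol and not by a list, also rose more often than they fell: 28 of 47 MRPL genes rose and 1 fell, and 14 of 28 MRPS genes rose and none fell (medians 0.34 and 0.25). With library totals 21 MRPL genes rose and 5 fell, and 9 MRPS genes rose and 3 fell.

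Protein homeostasis split within its lists. The split into subgroups was made after the values were seen, leaves out some tested members and is a description. The whole proteasome list had 21 of 38 higher and 4 lower, or 10 and 8 with library totals. The whole heat shock list had 17 of 37 higher and 11 lower, or 13 and 12 with library totals. Of 30 subunits of the constitutive proteasome, which degrades tagged proteins, 19 rose and none fell, from 0.17 to 0.75 on the log2 scale, whereas 4 of the 5 subunits and activators of the interferon-inducible immunoproteasome fell. PSMB9, a catalytic subunit of that form, was at 12.9, 12.7, 13.6 and 13.6 CPM with DMSO and 1.26, 1.75, 1.38 and 2.73 CPM with 4OHT. PSMB5, a catalytic subunit of the constitutive form, was at 525, 525, 495 and 565 CPM with DMSO and 686, 733, 680.0 and 689.8 CPM with 4OHT. The first fell without overlap and the second rose without overlap. Another constitutive subunit, PSMB6, did not pass in 5 of the fits with 1 library left out (edgeR, adjusted p of 0.0573 to 0.105). With library totals the constitutive subunits counted 9 higher and 3 lower. Among the 21 HSP70, HSP90 and co-chaperone genes, 12 rose and 3 fell (8 and 4 with library totals), with HSPA8 at 2492 ± 49.5 to 3191 ± 67.4 CPM and HSPA4 at 261 ± 3.55 to 454 ± 17.4 CPM. The stress-inducible HSPA1A (16.8 ± 1.78 to 10.5 ± 0.999 CPM) and HSPA1B (13.1 ± 0.987 to 7.29 ± 0.700 CPM), whose reads may be shared, fell. The small heat shock proteins fell as 4 of 5 tested: CRYAB from 15.2 ± 2.12 to 2.12 ± 0.312 CPM, HSPB6 from 169 ± 7.07 to 61.0 ± 2.90 CPM, HSPB1 from 439 ± 36.7 to 299 ± 29.3 CPM and HSPB7 from 2.15 ± 0.347 to 0.405 ± 0.248 CPM, while HSPB8 rose from 75.3 ± 3.19 to 106 ± 3.29 CPM. Of 43 autophagy genes, 18 rose and 7 fell, the homologues MAP1LC3B (361 ± 11.9 to 666 ± 18.3 CPM) and MAP1LC3A (32.2 ± 1.46 to 13.1 ± 0.997 CPM) in opposite directions. With library totals 12 rose and 13 fell. Of 53 secretory pathway genes, 23 rose and 4 fell, or 9 and 11 with library totals, so that direction rested on the scaling.

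**Figure D5:**
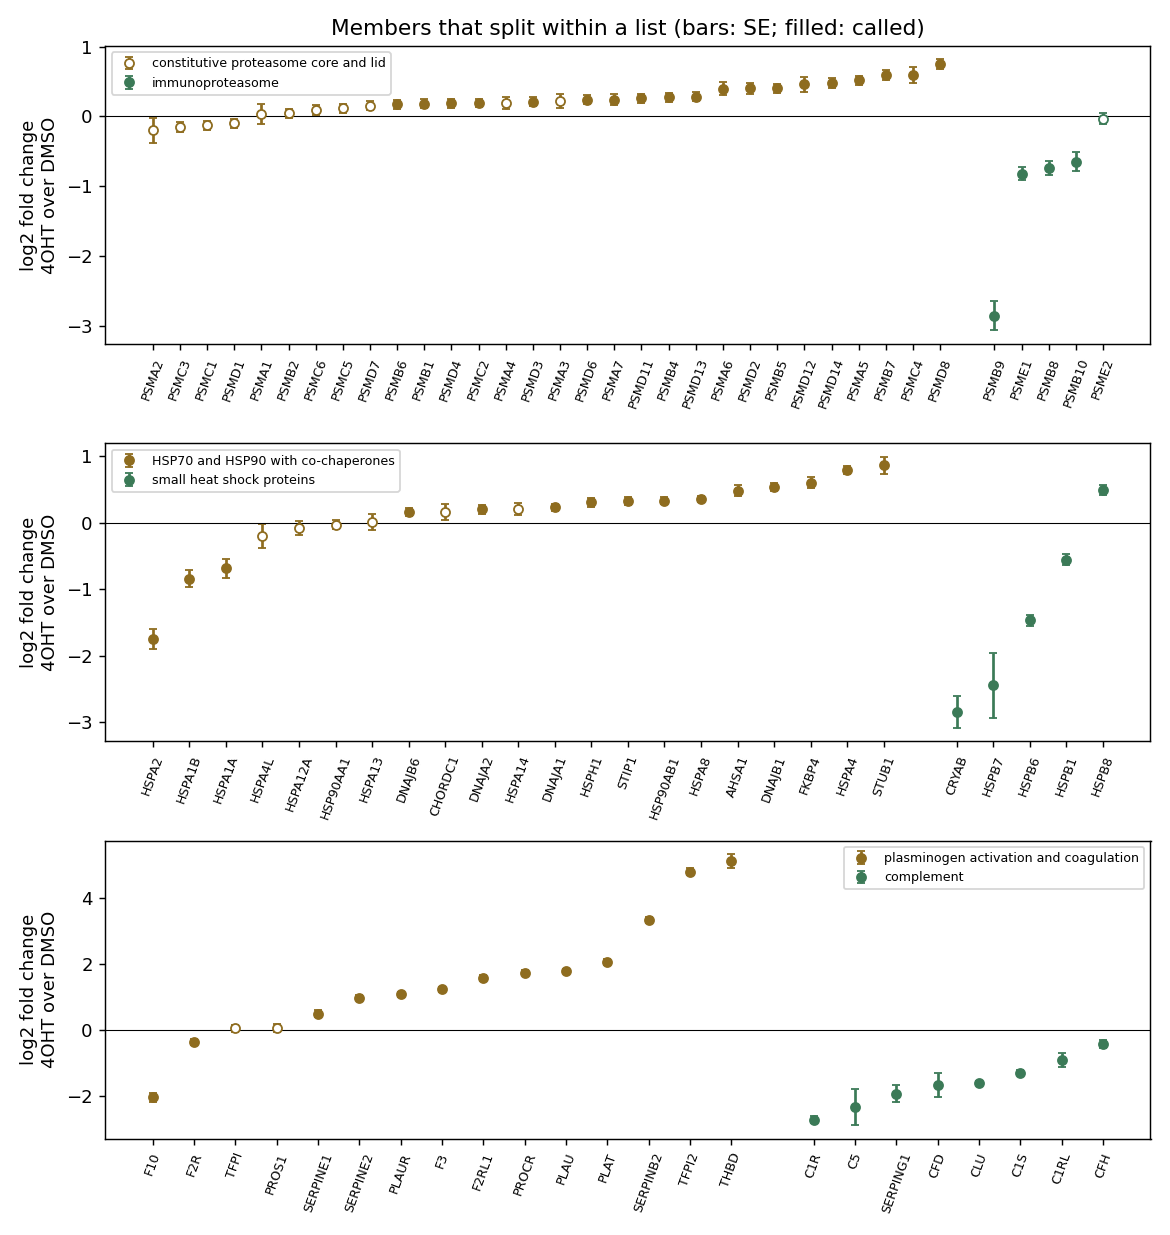
Log2 fold change (4OHT over DMSO) with SE of the tested members of 3 pairs of subgroups; filled points passed the test and open points did not. In each panel the subgroup on the right lies mostly below 0: PSMB9 at −2.86, CRYAB at −2.85 and C1R at −2.70.

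Blood-borne cascades parted as well. The whole complement and coagulation list had 13 of 32 higher and 14 lower (median 0.06). The 2 subgroups below were cut from it after the values were seen and leave out some of its tested members. All 8 tested of 15 complement genes fell (median −1.63). The classical-pathway protease C1R was at 57.1, 60.3, 64.8 and 65.9 CPM with DMSO and 8.89, 8.77, 9.66 and 10.6 CPM with 4OHT, its partner C1S fell from 181 ± 7.47 to 74.7 ± 6.74 CPM, their inhibitor SERPING1 from 5.71 ± 0.461 to 1.503 ± 0.712 CPM and the chaperone-like regulator CLU from 629 ± 24.9 to 208 ± 6.91 CPM. Among 15 genes of plasminogen activation and coagulation, 11 rose and 2 fell (median 1.24). THBD (thrombomodulin), which turns thrombin to an anticoagulant, was at 0.587, 1.35, 0.369 and 0.733 CPM with DMSO and 28.3, 27.6, 29.05 and 25.8 CPM with 4OHT (log2 fold change 5.12 with an SE of 0.20). The plasminogen activators PLAT (248 ± 9.26 to 1035 ± 66.2 CPM) and PLAU (975 ± 39.6 to 3375 ± 162 CPM) rose beside their inhibitor SERPINB2 (67.9 ± 8.36 to 686 ± 36.9 CPM), and the clotting starter tissue factor, F3, rose from 221 ± 12.3 to 521 ± 40.8 CPM beside TFPI2, whose libraries are given above. The counts of both subgroups were the same with library totals, and the whole list then had 12 higher and 14 lower.

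Survival and surveillance genes moved at single members. In the list of BCL2-family genes and death receptors, 15 of 39 rose and 8 fell. BCL2A1, an inhibitor of apoptosis, was at 0.391, 0.300, 0 and 0.220 CPM with DMSO and 25.3, 28.9, 23.9 and 27.1 CPM with 4OHT, and the decoy receptor TNFRSF10D, which binds the death ligand TRAIL without a working death domain, at 235, 216, 217 and 193 CPM with DMSO and 1089, 1102, 1156 and 1185 CPM with 4OHT. The signalling TRAIL receptors TNFRSF10A (9.54 ± 0.996 to 21.03 ± 1.12 CPM) and TNFRSF10B (159 ± 5.45 to 303 ± 22.9 CPM) rose less. Of 34 genes of nucleic acid sensing and the inflammasome, 14 fell and 8 rose (median −0.34). The protease CASP1 (29.2 ± 2.76 to 7.77 ± 1.23 CPM), the pore protein GSDMD (18.3 ± 1.40 to 5.29 ± 0.976 CPM) and the adaptor STING1 (42.4 ± 2.87 to 18.4 ± 0.640 CPM) fell, and CASP4, the protease that senses bacterial lipid, rose from 118 ± 8.46 to 267 ± 9.73 CPM. The list of antigen presentation and immune ligands had 13 of 33 higher and 10 lower, and 10 higher and 13 lower with library totals. ULBP2 (10.3 ± 1.013 to 24.1 ± 1.74 CPM) and MICA (108 ± 4.71 to 178 ± 5.63 CPM), 2 ligands of the natural killer receptor NKG2D, rose, whereas MICB, another, stood at 23.9 ± 2.73 to 23.8 ± 1.11 CPM and did not pass. HLA-B (119.8 ± 7.31 to 79.4 ± 6.76 CPM) and B2M (1874 ± 79.8 to 1454 ± 44.3 CPM) of MHC class I fell.

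Markers of other lineages rose at few genes. Of 61 epidermal barrier genes only 11 had enough reads to be tested, 7 of which rose and 2 fell. A member tested only through its 4OHT reads had to differ, so this count supports nothing. The median of the list, 5.82, turned on the filter: it was 0.69 with a mean CPM of at least 1, 1.04 with no filter on low counts and 3.25 with only the 8 libraries. LCE2A, next to LCE1F in the order of tested genes, was at 0.979, 0.450, 0.830 and 0.220 CPM with DMSO and 36.2, 39.1, 33.0 and 26.2 CPM with 4OHT. Keratins expressed in the controls differed in the size of their change. KRT19 was at 57.3, 53.1, 55.3 and 68.8 CPM with DMSO and 2.70, 2.87, 2.69 and 4.06 CPM with 4OHT, and KRT7 fell from 2.84 ± 0.228 to 0.949 ± 0.603 CPM. KRT8 was at a mean of 8.59 CPM with DMSO and 5.62 CPM with 4OHT, and KRT18 at 42.4 and 40.7 CPM. Of 60 neuronal and synaptic genes, 32 were tested, 8 rose and 12 fell: the GABA receptor chain GABRA2 was at 15.3, 13.7, 17.3 and 15.8 CPM with DMSO and 154, 161, 179 and 170.3 CPM with 4OHT and the neurofilament NEFM rose from 1.11 ± 0.445 to 9.5004 ± 0.840 CPM, while the growth factor BDNF fell from 114 ± 13.95 to 42.3 ± 5.36 CPM and the vesicle fusion protein SNAP25 from 2.71 ± 0.552 to 0.298 ± 0.0929 CPM.

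By class, protein-coding genes rose as 3251 and fell as 3143 of 11894, long non-coding RNAs as 157 and 143 of 754, and pseudogenes as 49 and 46 of 317. Long non-coding RNAs held 0.665% ± 0.0238 of reads with DMSO and 0.607% ± 0.0139 with 4OHT (exact permutation p = 0.0286). LINC01705 was at 0.979, 2.47, 0.461 and 0.733 CPM with DMSO and 76.8, 78.6, 66.6 and 72.0 CPM with 4OHT, LINC00973 rose from 13.9 ± 1.42 to 163 ± 6.47 CPM and MIR31HG, the transcript that hosts a microRNA gene, from 3.09 ± 0.444 to 11.4 ± 1.92 CPM. MIR100HG fell from 109.6 ± 6.07 to 48.6 ± 1.82 CPM. Without strand in the kit, reads of such genes and of overlapping partners cannot be told apart. Grouped by the stem of the symbol, among 81 stems with at least 15 tested members the lowest medians belonged to KIF (17 of 29 lower, 4 higher; −0.61), SEMA (9 of 15 lower, 5 higher; −0.55) and RAD (11 of 18 lower, 1 higher; −0.54). The highest belonged to IL (16 of 34 higher, 9 lower; 0.36), MRPL and DUSP, the dual-specificity phosphatases (8 of 16 higher, 2 lower; 0.30). EIF translation initiation factors followed, with 28 of 51 higher and 4 lower, or 16 and 5 with library totals.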

How the data were processed

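Per the labels' protocols, full-length cDNA was made by Smart-Seq2 and indexed with Nextera XT. The authors deposited raw counts of reads per gene. Tools named in the submitters' processing notes were CASAVA (1.8.2), the aligner TopHat2 (2.0.11) and the counter featureCounts (1.18.0), with hg19 and GRCh37; for reads with several matches nothing is given in the sources used here. Nextera marks no strand, and no molecular identifiers were used, so intervals cover counting error only.

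Symbols came from tables of GRCh38 (50127 of 62069 identifiers matched), and gene types and order from GENCODE 29, not the authors' build; the 50 gene lists had 1894 entries, of which 1883 found an identifier. Identifiers without a symbol held 0.476% of reads with DMSO and 0.435% with 4OHT. After filterByExpr (minimum count 10) and TMM scaling, 1 quasi-likelihood model was fitted with edgeR 4.0.16 (R 4.3.3) to 12 libraries and 3 groups with 9 residual degrees of freedom. SE is the log2 fold change divided by the square root of F. A prior count of 2 was used only for the log values of the GC correction, and the fit kept the default of edgeR. For genes with no read in a group the floor was 3 reads over the group. Single measures were tested by two-sided exact permutation of 4 against 4.

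The members, lists and tests were chosen with earlier results of these data known. The rule for named genes took the 6 checks and anchors, the 12 highest and 12 lowest log2 fold changes (average log2 CPM above 1, no overlap), the 8 largest gains and losses in mean CPM, up to 2 highest and 2 lowest called members of each list, 6 genes with no read in a group, members of runs, and 6 abundant bounded genes. The rule gave 259 genes; other genes were named after their values were seen, as were the subgroups of lists and the 60-base promoter window. Some genes that the rule gave are not reported here. In simulated data with 13248 genes, 4OHT against DMSO, 67, 67 and 66 genes were changed 1.5-, 2- and 4-fold. The fit recovered 52.2%, 77.6% and 95.5% of them, with 9 false calls. Far more genes passed the test in the real data, so these rates may not carry over. Alternatives were DESeq2 1.42.0, limma-voom (limma 3.58.1), RLE factors, library totals, other filters and thresholds, glmTreat, a GC correction (98.0% of genes had a GC value) and each library left out.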

Additional observations from a re-analysis of the deposited data

Results flagged for a closer look

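In each group of 4 libraries, the gap between the highest or lowest library and its nearest neighbour was divided by the group's range and compared with Dixon's critical value at 95%. Of 760 gene and group pairs named in the text or by the rule, 35 (4.61%) lay past it, where chance gives about 1 in 20. DMSO library 18 stood apart most often, with 10 of them; the number for each other library was between 2 and 7 among those with any, and DMSO library 19 and 4OHT library 23 had none. The ratios are in brackets. 4OHT library 21 was the highest of its group for DEPP1 (0.866). 4OHT library 21 was the lowest of its group for KPNA2 (0.893). 4OHT library 22 was the highest of its group for FOSL2 (0.853), ANO1 (0.879), PPARGC1B (0.867) and HSPA1A (0.870). 4OHT library 22 was the lowest of its group for CSF1R (0.901), C1S (0.955) and ITGA5 (0.830). 4OHT library 24 was the highest of its group for KRT19 (0.870), ARL6 (0.865), E2F8 (1) and EPHA7 (0.923). 4OHT library 24 was the lowest of its group for HES1 (0.943) and DMRTA1 (0.886). DMSO library 17 was the highest of its group for SMO (0.926), LUCAT1 (0.979), MMP8 (1) and CXCL5 (1). DMSO library 17 was the lowest of its group for AXL (0.899). DMSO library 18 was the highest of its group for CSF3 (1), EGR3 (0.918), DGAT2 (0.838), COL4A6 (0.908), ANKRD1 (0.906), EXO1 (0.841), TFPI2 (0.842) and HSPA8 (0.890). DMSO library 18 was the lowest of its group for TMEM231 (0.931) and HLA-B (0.848). DMSO library 20 was the highest of its group for SLIT2 (0.922) and LCE2C (1). DMSO library 20 was the lowest of its group for MEIS1 (0.866), POLG (0.841) and SERPINB2 (0.831). For CSF3, LCE2C, MMP8 and CXCL5 the other 3 DMSO libraries had no read.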

How the results depend on the processing

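Under every alternative but glmTreat, the counts of genes that rose, that fell and that changed by more than 2-fold stayed within 1.5 times those reported. Tested against 1.5-fold with glmTreat, 981 genes were higher and 1328 lower. Of 361 genes followed, 332 kept their side of the threshold in every setting but glmTreat, and none reversed. The number of runs of neighbouring genes moved to 12 (library totals), 2 (mean CPM of at least 1), 3 (only the 8 libraries), 10 (all gene types), 29 (1.5-fold) and 33 (both). With 250 bases upstream alone, TTTGAA occurred in 19.5% and the E2F letters in 6.37% of promoters of genes that fell by more than 4-fold; in the 60-base window, chosen after the data were seen, TTTGAA occurred in 2.22% (rose) and 8.24% (fell). The difference in genes detected with all reads was −322.8 (exact permutation p = 0.429). Leaving out 1 library, the share of reads in the 100 most abundant genes differed by 2.44 to 2.77 percentage points and the genes detected by −855.5 to −690.1; 3 against 4 cannot give an exact p below 0.0571. No paired analysis was possible because the groups share no replicate numbers. Depth limits the genes with few reads: only 13248 of 62069 identifiers could be tested, and genes absent from all reads of a group have only a lower limit for their fold change.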

Other observations

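Among genes outside every list above, 2 sets drew attention, and each was then written out in full from textbook membership after the values of some members had been seen. The counts are descriptions with no test. The first holds genes of osteoclasts, the multinucleated cells that resorb bone. Of 18 such genes 11 had enough reads to be tested, 7 of which rose and none fell. DCSTAMP, a membrane protein needed for the fusion of osteoclast precursors, stood at 0.294, 0.225, 0 and 0.220 CPM with DMSO and 11.2, 11.6, 13.7 and 13.2 CPM with 4OHT. ATP6V0D2, the proton pump subunit known from the same fusion, stood at 0, 0.150, 0 and 0.220 CPM with DMSO and 7.24, 9.09, 10.1 and 9.66 CPM with 4OHT. Neither gene had overlapping groups. CTSK, the collagen-degrading cathepsin of these cells, rose from 155 ± 2.89 to 373 ± 17.7 CPM, the acid phosphatase ACP5 from 1.05 ± 0.284 to 3.62 ± 0.711 CPM and OSTM1 of the lysosomal chloride exchanger from 84.5 ± 4.41 to 167 ± 5.63 CPM. The master regulator NFATC1, at 3.72 ± 0.494 to 3.40 ± 0.746 CPM, did not pass the test (log2 fold change −0.11 with an SE of 0.20), nor did the resorption pump subunit TCIRG1 (log2 fold change −0.22 with an SE of 0.10), and the receptor gene TNFRSF11A was not among the tested genes.

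The second set holds granule proteins and peptides of neuroendocrine cells and neurons. Of 23 genes 14 were tested, 9 rose and 1 fell. SCG5, a chaperone of hormone processing, stood at 5.09, 6.07, 7.19 and 7.03 CPM with DMSO and 175, 173, 152 and 165 CPM with 4OHT, and TAGLN3, an actin-binding protein of neurons, at 1.37, 0.825, 2.03 and 0.586 CPM with DMSO and 118, 116, 112 and 107 CPM with 4OHT. All 4OHT libraries lay above all DMSO libraries in both. VGF, a granule protein, rose from 0.383 ± 0.259 to 11.3 ± 1.84 CPM, the neuropeptide GAL from 3.25 ± 0.718 to 52.4 ± 5.39 CPM and the synuclein SNCB from 0.985 ± 0.316 to 24.5 ± 2.49 CPM. Members tested mainly through their 4OHT reads had to differ, so neither count supports more than the values do. With library totals the counts were 7 higher and 1 lower of 11, and 8 higher and 2 lower of 14.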
